A study of Mus musculus with 18 samples.

Results

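The core genes of mitochondrial transport and dynamics, 10 in all, were followed in cultured sensory neurons of the mouse dorsal root ganglion (DRG). They were chosen by symbol because their proteins attach mitochondria to motors or fuse and divide them: Rhot1, Rhot2, Trak1, Trak2, Mfn1, Mfn2, Opa1, Dnm1l, Fis1 and Mff. All 10 were present among the 17198 genes of the deposited table, and their rule names genes by function and uses no measured value, although it was written with earlier results of these data known. RNA was sequenced from wild-type (WT) cultures and from cultures heterozygous (HET) for the tm1a allele, genotype Dynlrb1(tm1a/+), at 12, 24 and 48 h in culture. The tm1a design is a knockout-first insertion carried in every cell, and HET cells keep 1 intact copy of the gene. The product of Dynlrb1 is a roadblock light chain of dynein, which moves cargo from axon to cell body. Each of the 6 groups held 3 cultures called biological repeats by the submitters, 18 samples in all. Strain, age and sex of the mice are not given in the sources used here, nor is whether the repeats came from separate animals, so p-values measure the spread between these cultures.

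Mitochondria in long axons travel on microtubules, carried outward by kinesin and back by dynein. The outer-membrane GTPases MIRO1 and MIRO2, encoded by Rhot1 and Rhot2, bind the adaptors TRAK1 and TRAK2, which in turn bind the motors. Mitofusin 1 and 2 fuse outer membranes, OPA1 fuses inner membranes and shapes cristae, and DRP1, the dynamin-like GTPase encoded by Dnm1l, divides mitochondria after recruitment by receptors such as MFF and FIS1. Sensory neurons depend on this traffic because their axons are very long, and inherited changes in MFN2 cause a form of Charcot-Marie-Tooth neuropathy.

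Levels of 1 gene across groups are given below as the authors' normalized counts, which carry no raw depth. Levels between genes are given as the deposited FPKM, which divides fragments by gene length and library size. Sequencing depth per sample is unknown. Differences were tested by limma on log2(normalized count + 1), with Benjamini-Hochberg adjustment over all 17198 genes and a threshold of 0.05. SE stands for standard error, and each interval is a 95% interval of the difference before adjustment. Dynlrb1 itself lay between 5229 and 6674 normalized counts in the 9 WT cultures and between 2716 and 4087 in the 9 HET cultures, with no overlap. Averaged over the 3 times it was lower in HET by a log2 difference of -0.83 (SE 0.071, limma adjusted p = 2.85e-05). All 12 neuronal markers examined were present, and their summed level ran from 6970 to 9616 FPKM over the 18 samples. Markers of other cells were also present and moved with time. The 10 Schwann and satellite glial markers summed to 726 ± 141 FPKM in WT at 12 h and 269.6 ± 24.3 at 48 h (SD, n = 3), and to 675 ± 154 and 325 ± 55.7 in HET. The 4 dividing-cell markers summed to 1.20 FPKM at 12 h and 10.4 at 48 h in WT, and to 1.11 and 5.38 in HET (group means of the sum). HET culture 3 at 48 h stood apart, with 1.44 FPKM for dividing-cell markers and 63.6 FPKM for 3 blood genes, against at most 7.42 FPKM for blood genes in the other 48 h cultures. These are bulk samples, so fewer cells of a type and less RNA per cell cannot be told apart.

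All 10 genes were expressed in every culture, but at levels that spanned a factor of 7.48. Averaged over the 18 samples, Dnm1l was highest at 103 ± 5.24 FPKM (SD). It was followed by Mfn2 at 98.5 ± 14.5, Mff at 93.0 ± 7.69 and Fis1 at 84.4 ± 10.3 FPKM. These 4 genes were not cleanly ordered: Dnm1l exceeded Mfn2 in 10 of 18 samples, Mfn2 exceeded Mff in 12 and Mff exceeded Fis1 in 13. A clear step followed, since Fis1 exceeded Opa1, at 34.1 ± 1.52 FPKM, in all 18. Opa1, Trak1 at 31.1 ± 6.76 and Trak2 at 29.2 ± 1.88 FPKM again overlapped, with Opa1 above Trak1 in 12 samples and Trak1 above Trak2 in 9. Below them stood Rhot1 at 23.0 ± 2.19, Rhot2 at 19.8 ± 1.31 and Mfn1 at 13.8 ± 0.942 FPKM. Trak2 lay above Rhot1, and Rhot2 above Mfn1, in all 18 samples, while Rhot1 lay above Rhot2 in 15. Even Mfn1 stood at the 68.6th percentile of all genes by mean FPKM, and Dnm1l stood at the 96.4th.

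**Figure D1:**
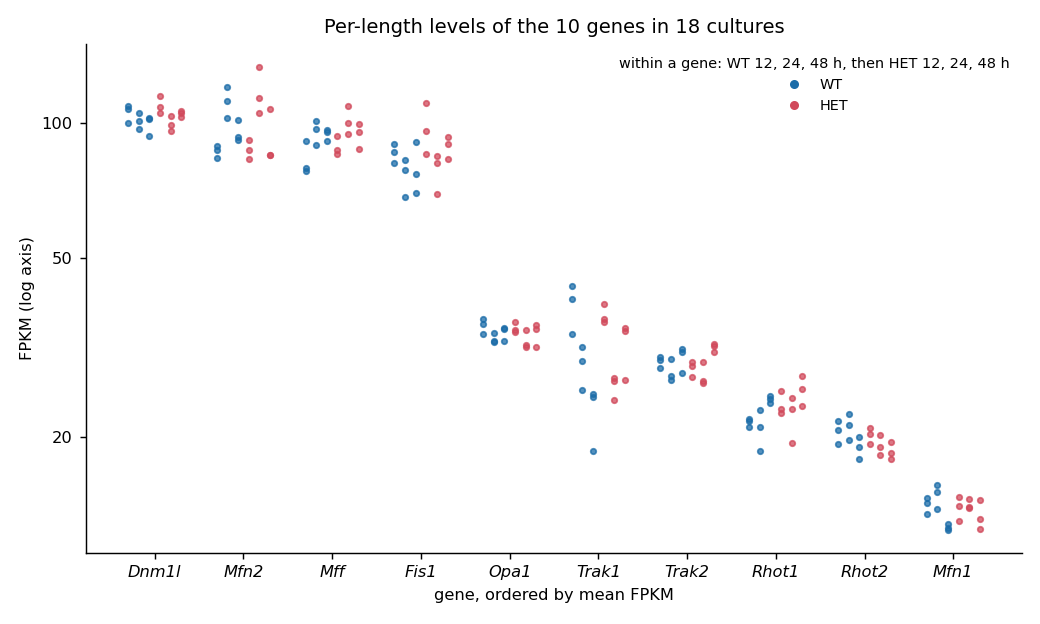
Deposited FPKM of the 10 genes in all 18 samples, 1 point per culture, by genotype and then time within each gene, with the FPKM axis on a log scale. Dnm1l, Mfn2, Mff and Fis1 form an upper group with mean levels of 84.4 to 103 FPKM, and Mfn1 is lowest at 13.8 FPKM.

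The genes also differed in how steady they were. The coefficient of variation of FPKM over the 18 samples, the SD as a percentage of the mean, was 21.7% for Trak1, 14.7% for Mfn2 and 12.2% for Fis1. It was below 10% for the other 7 genes and lowest for Opa1, at 4.45%. Between the highest and the lowest group mean, normalized counts differed 1.73-fold for Trak1, 1.36-fold for Mfn2 and 1.08-fold for Opa1.

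**Figure D2:**
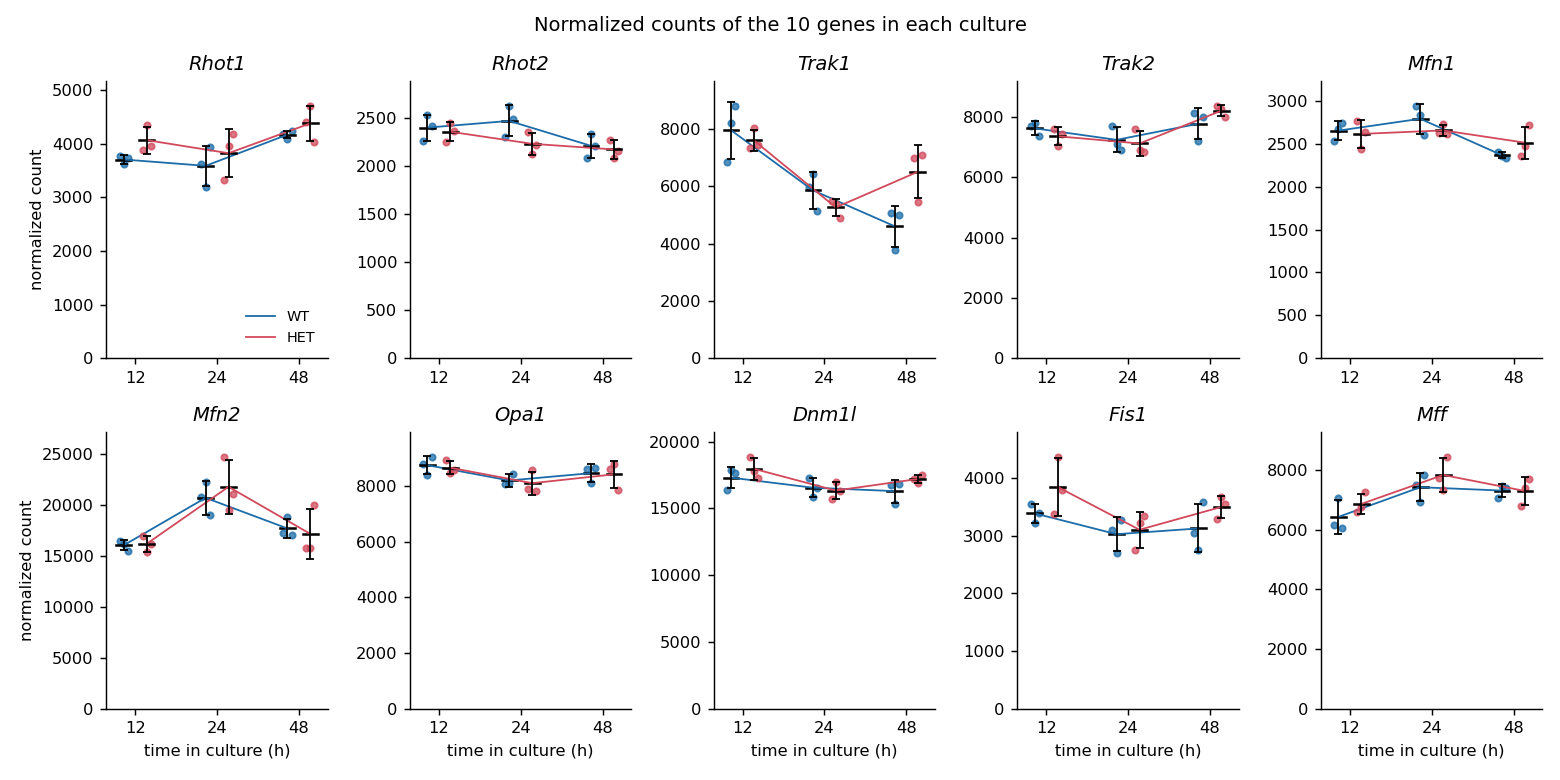
Normalized counts of each of the 10 genes against time in culture (12, 24 and 48 h, drawn with even spacing), 1 point per culture, WT and HET side by side, with group means joined by lines and bars of 1 SD (n = 3). Trak1 falls in WT from a mean of 7959 to 4606 while HET stands at 6507 at 48 h, and the group mean of Mfn2 is highest at 24 h in both genotypes.

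Trak1 (chr9:121297502-121474918, plus strand, mouse GRCm38, GENCODE M21) encodes an adaptor that links MIRO-bearing mitochondria to kinesin and dynein, and of the pair it is the one most often tied to axonal transport. In WT cultures it read 6863, 8214 and 8799 normalized counts at 12 h (culture numbers 1, 2 and 5). At 24 h it read 5982, 6446 and 5156 counts, and at 48 h 5056, 3778 and 4984 (numbers 1, 2 and 3). No 2 of the 3 WT time points overlapped, and each was lower than the one before. At 48 h the group mean differed from that at 12 h by -42.1%, a log2 difference of -0.79 (SE 0.13, interval -1.07 to -0.52, limma adjusted p = 1.80e-04). Trak1 was the only 1 of the 10 genes past the threshold in that comparison, where 47.1% of all genes passed, 30.0% higher and 17.1% lower. The WT difference at 24 h was -0.44 in log2 and missed the threshold (limma adjusted p = 0.0675). In the authors' deposited table it is listed as -0.44 with an adjusted p of 0.0439, where 854 genes are under 0.05. From 12 to 48 h in WT the summed glial markers went down, although 2 of the 10 were called higher beside 4 lower. Summed dividing-cell markers went up, as did fibroblast (62.8 to 126 FPKM) and macrophage markers (23.8 to 57.1). Of the 6 macrophage markers, 2 were called higher and 2 lower, and their sum at 48 h was highest in WT culture 2, at 82.4 FPKM. Endothelial markers (62.7 to 30.9 FPKM) and blood genes (110 to 4.35) went down. Of the 12 neuronal markers 3 were called higher and 5 lower. The part of these cell types in the Trak1 result was not tested.

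In HET cultures Trak1 read 7329, 8035 and 7441 normalized counts at 12 h, 5482, 5398 and 4911 at 24 h, and 6991, 5445 and 7085 at 48 h. It was lower at 24 h, with all 3 cultures below those at 12 h, and at 48 h 2 of 3 cultures were above every 24 h culture. The change from 12 to 24 h was -0.53 in log2 (SE 0.13, interval -0.80 to -0.26, limma adjusted p = 0.0104), in a comparison where 18.9% of all genes passed. That call rested on HET culture 2 at 12 h, without which the difference was -0.49 (limma adjusted p = 0.0581). From 12 to 48 h the HET difference was -0.23 (interval -0.51 to 0.04, limma adjusted p = 0.227).

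At 48 h all 3 HET cultures therefore lay above all 3 WT cultures, 5445 to 7085 against 3778 to 5056 normalized counts. The HET mean was 41.3% higher, a log2 difference of 0.50 (SE 0.13, interval 0.23 to 0.77, limma adjusted p = 0.0590). No gene of the 17198 passed in this comparison (percent called 0), although 3782 had an unadjusted p under 0.05 in limma. Even the targeted gene Dynlrb1, at -0.84 in log2, missed narrowly here (limma adjusted p = 0.0501). Same-numbered WT and HET cultures deviated together at 48 h. With the replicate number as a block, 2120 genes or 12.3% passed, 5.04% higher and 7.29% lower, and Trak1 was among them at the same difference (limma adjusted p = 0.00278). It was the only 1 of the 10 genes to pass with the block. In the authors' deposited table the same Trak1 difference is listed as 0.50 with an adjusted p of 0.0166. There 1028 of the 17198 genes are listed under 0.05 for HET against WT at 48 h. At 12 and 24 h the genotypes overlapped for Trak1, with log2 differences of -0.06 and -0.15 (limma adjusted p = 0.908 and 0.99995). The test of whether the 12 to 48 h change differed between genotypes gave 0.56 (SE 0.18, interval 0.17 to 0.95) but missed the threshold (limma adjusted p = 0.548), and 0 genes passed it in limma, with 1534 at an unadjusted p under 0.05. The time and genotype comparisons at 48 h share the same cultures and are not independent.

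Without WT culture 2 at 48 h, the lowest for Trak1, the unblocked genotype difference was 0.36 (limma adjusted p = 0.401). Without HET culture 3, the one with high blood genes, it was 0.43 (0.255), and with the block and without the pair numbered 3 it was 0.50 (limma adjusted p = 0.0212). At 48 h summed glial markers lay between 243 and 291 FPKM in WT and between 261 and 361 in HET. Fibroblast markers lay between 107 and 154 FPKM in WT and between 87.4 and 155 in HET, and dividing-cell markers between 6.14 and 14.6 and between 1.44 and 9.03. The 6 macrophage markers measured were apart, at 42.7 to 82.4 FPKM in WT and 25.7 to 38.2 in HET, as were the 12 neuronal markers, at 7328 to 7861 and 7890 to 8151 FPKM. Without the block no gene of the 17198 passed between genotypes at 48 h, so the lack of a marker call there says nothing about the markers. With the block, 1 was lower of 10 glial, of 6 fibroblast, of 6 macrophage and of 12 neuronal markers. Of the 4 dividing-cell markers 3 were lower, and of all genes 7.29% were. None of these markers is listed at 0. Their part in the Trak1 result was not tested.

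Trak2 (chr1:58900449-58973430, minus strand) encodes the related adaptor, which is tied mainly to dynein and dendritic transport, and it moved little. Its group means ran from 7121 to 8210 normalized counts, and the genotypes overlapped at all 3 times. Its highest group was HET at 48 h, with 8358, 8277 and 7994 counts, above every HET culture at 12 and 24 h. The HET difference from 12 to 48 h was 0.16 in log2 and did not pass (limma adjusted p = 0.147). The log2 ratio of Trak1 to Trak2 normalized counts within each sample removes any scaling of the sample. It averaged 0.05 ± 0.21 in WT at 12 h (SD, n = 3), -0.31 ± 0.15 at 24 h and -0.77 ± 0.14 at 48 h. In HET it averaged 0.05 ± 0.13, -0.44 ± 0.07 and -0.35 ± 0.23. At 48 h the ratio itself lay between 0.525 and 0.623 in WT and between 0.658 and 0.886 in HET, so the genotypes did not overlap. The ratio shows an unequal change of the pair and is not a level per length.

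**Figure D3:**
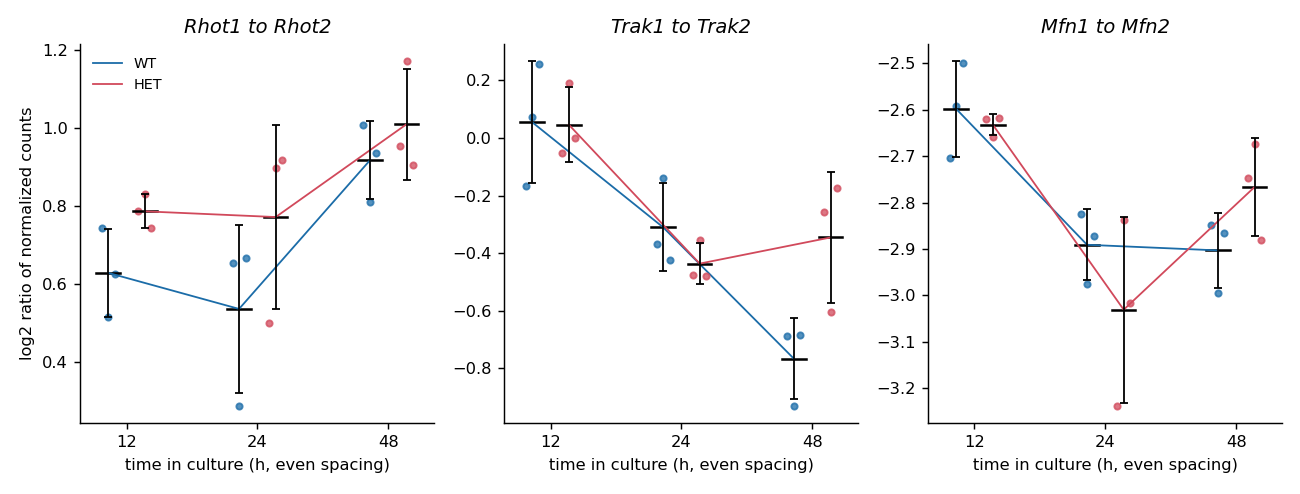
Log2 ratio of normalized counts within each sample for Trak1 to Trak2, Rhot1 to Rhot2 and Mfn1 to Mfn2, against time in culture (12, 24 and 48 h, drawn with even spacing), 1 point per culture, with group means joined by lines and bars of 1 SD (n = 3). For Trak1 to Trak2 the 48 h means are -0.77 in WT and -0.35 in HET.

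Rhot1 (chr11:80209019-80267907, plus strand) and Rhot2 (chr17:25838457-25844851, minus strand), the MIRO genes, showed no call in any comparison. Rhot1 was lowest in WT at 24 h (3198 to 3942 normalized counts) and highest in both genotypes at 48 h (4092 to 4230 in WT, 4033 to 4697 in HET). At 12 h its 3 HET cultures, 3883 to 4352 counts, lay above the 3 WT cultures, 3610 to 3772. It was the only 1 of the 10 genes whose genotypes did not overlap at that time, where 15.1% of all genes did not overlap. The difference averaged over times was 0.10 in log2 (limma adjusted p = 0.440, unadjusted exact permutation p = 0.06825). That exact p was the lowest of the 10 genes, which ran up to 0.96775 for Trak2, and it is not adjusted for the 10. Rhot2 group means ran from 2170 to 2467 counts and were lower in HET at each time, with overlap at each. The log2 ratio of Rhot1 to Rhot2 was 0.63 in WT at 12 h and 0.92 at 48 h, and 0.79 and 1.01 in HET (group means). At 12 h the genotypes were barely without overlap in this ratio, at most 0.743045 in WT and at least 0.743115 in HET. The Rhot2 locus shares sequence positions with the gene Wdr90, which lies on the same strand and averaged 126 normalized counts. Counting by strand would not separate them, and how shared positions were counted is not given in the sources used here.

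Mfn2 (chr4:147873599-147904704, minus strand), which joins outer membranes and also tethers mitochondria to the endoplasmic reticulum, rose between 12 and 24 h. In HET it read 17003, 15441 and 16192 normalized counts at 12 h and 24756, 19554 and 21129 at 24 h. Every 24 h culture exceeded every 12 h culture, by 34.5% in the group means. The log2 difference was 0.42 (SE 0.10, interval 0.21 to 0.64, limma adjusted p = 0.0102), and Mfn2 and Trak1 were the 2 genes of the 10 called in that comparison. The call was lost without HET culture 1 at 24 h, the highest (0.33, limma adjusted p = 0.0557), and without HET culture 2 at 12 h (0.39, limma adjusted p = 0.0577). In WT the readings were 16523, 16150 and 15536 counts at 12 h and 20834, 22319 and 19036 at 24 h. These groups did not overlap either, but the difference of 0.36 missed the threshold (interval 0.15 to 0.58, limma adjusted p = 0.0579) in a comparison where 3.62% of all genes passed. With a minimum mean of 50, which tests fewer genes, the same WT difference passed (limma adjusted p = 0.0474). The WT and HET changes are not shown to differ.

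At 48 h WT cultures read Mfn2 at 17302, 18829 and 17036 normalized counts and HET cultures 15790, 15755 and 20011, and neither differed from 12 h past the threshold (log2 0.14 and 0.08, limma adjusted p = 0.276 and 0.643). All 3 WT cultures at 48 h were below those at 24 h, while in HET the 24 and 48 h cultures overlapped through HET culture 3, the one with high blood genes. A test of 48 against 24 h was not run. Genotypes overlapped for Mfn2 at all 3 times. Mfn1 (chr3:32529465-32579239, plus strand), the other mitofusin, also had its highest group mean at 24 h in both genotypes (2793 counts in WT and 2657 in HET). Its correlation with Mfn2 over the 18 samples was 0.426. Its WT cultures at 48 h, 2339 to 2402 counts, lay below all WT cultures at 12 h (2536 to 2748) and 24 h (2599 to 2939). The difference of -0.16 from 12 h did not pass (limma adjusted p = 0.0931), but on the authors' other per-sample columns it was -0.27 (limma adjusted p = 0.0174). Those columns lack 2 directions among samples, which that fit did not count off, so its p-values can be too small. The log2 ratio of Mfn1 to Mfn2 was -2.60 in WT at 12 h and -2.90 at 48 h, and -2.63 and -2.77 in HET.

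Opa1 (chr16:29579334-29654884, plus strand), the inner-membrane fusion GTPase, was the steadiest of the 10. Over the 18 cultures it ran from 7816 to 9037 normalized counts, and no comparison called it. Gene counts do not resolve the splice forms or the proteolytic forms of OPA1, on which its activity depends.

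Among the division genes none was called in any comparison. Dnm1l (chr16:16312230-16358959, minus strand), the division GTPase, lay between 15302 and 18855 normalized counts in all cultures. At 48 h its HET cultures, 16914 to 17464 counts, exceeded its WT cultures, 15302 to 16813, as Trak1 did. These were 2 of 10 genes without overlap between genotypes at that time, where 24.0% of all genes had none. Fis1 (chr5:136953275-136966234, plus strand), an outer-membrane protein that recruits division factors, averaged 3843 ± 497 counts in HET at 12 h and 3102 ± 316 at 24 h (SD, n = 3), with no overlap. That difference of -0.31 in log2 missed the threshold (limma adjusted p = 0.0719). It passed on the other per-sample columns (-0.36, limma adjusted p = 0.0267), with the limit on p-values given above for Mfn1. With the replicate block it also passed (limma adjusted p = 0.0144), though not all same-numbered cultures correlated there. HET means of Fis1 were above WT means at each time, by 0.18, 0.04 and 0.17 in log2. The averaged difference was 0.13 (limma adjusted p = 0.407, unadjusted exact permutation p = 0.0735, the lowest of the 10 genes after Rhot1). Mff (chr1:82724890-82752394, plus strand), the tail-anchored receptor of DRP1, stood higher at 24 h than at 12 h in both genotypes. In HET it went from 6598 to 7256 counts at 12 h to 7339 to 8446 at 24 h without overlap, a log2 difference of 0.19 (limma adjusted p = 0.121), and in WT the difference was 0.21 (0.155).

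**Figure D4:**
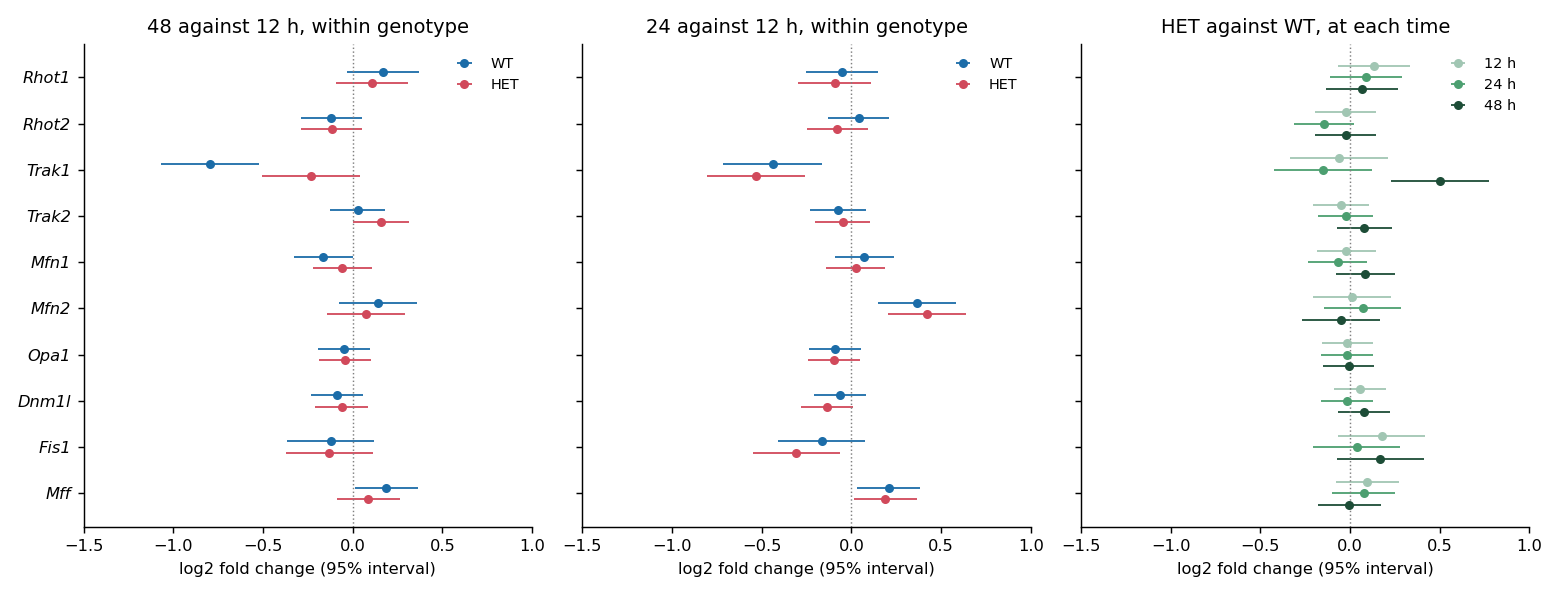
Log2 fold changes of the 10 genes with 95% intervals from limma, for 48 and 24 against 12 h within each genotype and for HET against WT at each time. Intervals of Trak1 lie to the right of 0 for HET against WT at 48 h and to the left of 0 for 48 against 12 h in WT.

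Across the genotype comparisons as a whole, none of the 10 genes passed at 12, 24 or 48 h or in the average, without the block. The share of all genes that passed in limma was 0.00581% at 12 h, 0.00581% at 24 h and 0.0174% averaged. Unadjusted p fell under 0.05 for 1447, 198 and 2315 of all genes in these, and at 48 h for 1 of the 10 genes, Trak1. The median log2 difference of the 10 genes was 0.02 averaged over times, against -0.02 for all genes. For 48 against 12 h the 10 genes had a median of -0.07 in WT, against 0.11 for all genes, and of -0.05 in HET against 0.10. Of the 10, none passed for 48 against 12 h in HET, where 14.2% of all genes passed. Groups without overlap were more frequent, though not between genotypes at 24 h, where 0 of the 10 genes and 5.60% of all genes were without it. In WT, 2 of the 10 genes had no overlap between 12 and 24 h (Mfn2 higher, Trak1 lower), against 26.9% of all genes. In the same genotype 4 of the 10 genes had none between 12 and 48 h (Rhot1 and Mfn2 higher, Trak1 and Mfn1 lower), where 55.3% of all genes had none, and 4 between 24 and 48 h, against 46.0%. In HET, 5 of 10 had none between 12 and 24 h (Mfn2 and Mff higher, Trak1, Dnm1l and Fis1 lower), against 38.4%, and 2 between 12 and 48 h (Trak2 higher, Trak1 lower), against 29.7%. Between 24 and 48 h in HET it was Trak2 alone, higher, against 18.3%. In WT both medians were lower on the authors' other per-sample columns, which differ in scaling and lack 2 directions among samples. There the WT median of all genes was 0.01 and that of the 10 genes -0.17, and Mfn1, Rhot2 and Dnm1l joined Trak1 as lower.

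By the rule of highest Pearson correlation over the 18 samples, the genes most like Trak1 were Arsb (r = 0.985), Gnao1 (0.983) and Prkce (0.967). Arsb encodes a lysosomal sulfatase, Gnao1 the alpha subunit of the neuronal G protein Go and Prkce a protein kinase C. Their differences from 12 to 48 h were -1.48, -1.58 and -1.20 in log2 in WT and -0.48, -0.65 and -0.40 in HET. These genes were picked for following Trak1 over the same samples, so a shared time course follows from the pick. No gene passed the limma test of whether that change differed between genotypes. Mff had the highest difference from 12 to 48 h in WT of the 10. The genes most like it were Thumpd1 (r = 0.937), Serinc3 (0.936) and Rtfdc1 (0.934). These correlations are over 12633 genes with a mean of at least 1 FPKM, share the 6 groups and their scaling, and are descriptions. Among the 10 genes, Trak1 and Dnm1l were most alike (r = 0.722) and Mfn2 and Opa1 most opposed (r = -0.801).

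Partner genes were counted in 5 lists beside the 10. Of 28 motors, anchors and regulators of mitochondrial transport, 7 were higher and 8 lower at 48 than at 12 h in WT, against 47.1% of all genes called. Fez1, a kinesin adaptor, differed by -0.98 in log2 (limma adjusted p = 7.50e-04). Snph, which encodes the syntaphilin anchor that holds axonal mitochondria in place, differed by -0.82 and Dctn1, the large dynactin subunit that assists dynein, by -0.63. Dctn1 means went from 25381 to 16404 normalized counts in WT and from 26241 to 20562 in HET. Higher were Cenpf (2.39), which binds MIRO and also marks dividing cells, Mtx1 (0.73) and Armc10 (0.63). Dividing-cell markers stood higher at 48 h in both genotypes, as given above, and their part in the Cenpf result was not tested. In HET 1 was higher and 3 were lower, against 14.2% of all genes called: Cenpf at 1.70, and Dync1i1, a dynein intermediate chain, at -0.46, Dctn1 at -0.35 and Klc2, a kinesin light chain, at -0.26.

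In the other 4 lists the called genes in WT were 10 of 21, 9 of 19, 5 of 18 and 8 of 17, to be read against 47.1% of all genes called, 30.0% higher and 17.1% lower. In HET they were 5 of 21, 3 of 19, 0 of 18 and 1 of 17, against 14.2%. Of 21 fission receptors and regulators, 9 were higher and 1 lower in WT, with Cdk5 (0.93), Akap1 (0.88) and Inf2 (0.65) highest. The lower gene was Ppp3ca, the calcineurin catalytic subunit, which dephosphorylates DRP1, at -0.85. In HET 4 were higher (Inf2 0.74, Cdk5 0.51, Akap1 0.47 and Dnm2 0.31) and Ppp3ca was lower at -0.56. Of 19 genes of fusion, OPA1 processing and cristae, 9 were higher and none lower in WT, with Apool at 1.25, 2410015M20Rik (Micos13) at 0.81 and the OPA1 protease Oma1 at 0.73. In HET 3 were higher, Apool at 0.63, Oma1 at 0.51 and Yme1l1, the other OPA1 protease, at 0.33. Of 18 mitophagy and quality-control genes, 4 were higher in WT (Clpp 0.60, Lonp1 0.52, Bnip3l 0.35 and Optn 0.30) and Ambra1 was lower at -0.35, with no call in HET. Of 17 biogenesis and mitochondrial DNA genes, 7 were higher in WT, led by Ssbp1 (0.85), Esrra (0.75) and Top1mt (0.75), and Nrf1, a transcription factor of respiratory genes, was lower at -0.80. In HET only Ssbp1 passed, at 0.40. List medians for WT were -0.03 for transport partners, 0.20 for fission, 0.25 for fusion and cristae, 0.10 for mitophagy and 0.29 for biogenesis, against 0.11 for all genes. On the authors' other columns the WT counts became 5 higher and 12 lower, 6 and 3, 6 and 1, 3 and 2, and 5 and 2, in the same order of lists. In HET they became 1 and 5, 0 and 1, 1 and 0, 0 and 0, and 0 and 1, so the higher fission calls in HET were present on the main columns only. Dnm2 and Optn were named after their values were seen.

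Between genotypes, no gene of the 5 lists passed at any time or in the average without the block, where at most 0.0174% of all genes passed. With the block at 48 h, 13 of the 103 listed genes passed, against 12.3% of all genes, and they are named after their values were seen. Higher in HET were Fez1 (0.81 in log2), Dync1i1 (0.43), Dctn1 (0.32), Kif5a (0.30), a neuronal kinesin heavy chain, Ppp3ca (0.40) and Nrf1 (0.57). Lower were Ogt (-0.26), Inf2 (-0.70), Akap1 (-0.46), Apool (-0.54), Esrra (-0.53), Ssbp1 (-0.47) and Top1mt (-0.48). Dctn1, for example, averaged 16404 ± 1268 normalized counts in WT and 20562 ± 1946 in HET at 48 h (SD, n = 3; limma adjusted p = 0.0109 with the block). These genotype differences and the time differences above share the 48 h cultures.

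**Figure D5:**
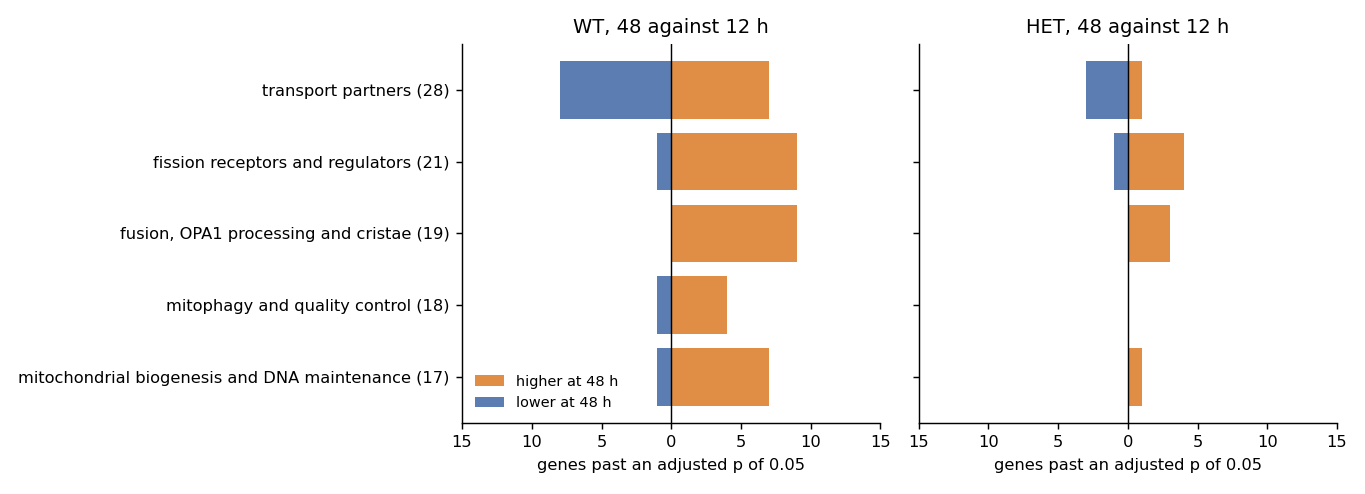
Number of genes in each of 5 mitochondrial lists past a limma adjusted p of 0.05 for 48 against 12 h, in WT (left) and HET (right), with higher genes to the right of 0 and lower genes to the left and the number measured in brackets. In WT, 8 of 28 transport partners are lower, while 9 of 21 genes of the fission list and 9 of 19 of the fusion list are higher. Of all genes, 30.0% passed as higher and 17.1% as lower in that comparison.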

How the data were processed

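RNA from 18 DRG cultures was analysed from 1 table of 17198 genes. Per the file headers, the authors deposited normalized counts, a signal with no whole numbers and nearly equal column totals, and a second set of per-sample signal columns. They also deposited FPKM, log2 fold changes, p-values and a rank, a score. Per the submitters' processing notes, CASAVA 1.8.2, edgeR and mm10 were used; the aligner, counting and annotation are not given in the sources used here. The centred log2 values of the second set had 15 of 17 possible dimensions, so 2 directions among samples had been removed. Fits on that set without these directions as covariates still counted 12 residual degrees of freedom, so their p-values can be too small.

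In R 4.3.3, limma 3.58.1 (lmFit, then eBayes with trend) was fitted to log2(normalized count + 1) of all 18 samples with 1 coefficient per group and 12 residual degrees of freedom, adjusted within each of 9 comparisons. The minimum mean of 1 removed 0 genes. The exact permutation tests exchanged genotype within time points (8000 arrangements, two-sided); 3 against 3 cannot go below 0.1. The fits were tested on simulated data. Alternatives were another pseudocount (0.1), a minimum mean of 50, the second columns, the missing directions, the groups compared alone, a replicate block and each culture left out.

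Replicate numbers come from the sample titles. At 48 h deviations of same-numbered WT and HET cultures correlated at 0.21 to 0.46 in all 3 pairs, so the blocked fit is given there.

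All 10 genes were named throughout. From each list up to 3 genes per direction past the threshold were named for 48 against 12 h, and the 3 genes most correlated with the extreme members. The members and lists were chosen with earlier results of these data known.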

Additional observations from a re-analysis of the deposited data

How the results depend on the processing

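Counts of genes past the limma threshold moved with the processing in every comparison below except 48 against 12 h in WT. For HET against WT at 12 h the count of 1 gene became 0 with a minimum mean of 50, 17 with a replicate block, 2 on the plain adjusted columns (the authors' second set), 2 with the missing directions on these columns, and 0 to 2 without 1 culture. At 24 h the count of 1 became 0 with the block, 0 with the groups compared only, 0 with block and missing directions together, and 0 to 2 without 1 culture. At 48 h the count of 0 became 264 with the minimum of 50, 2120 with the block, 1 on the plain columns, 1 with missing directions and 1969 with both block and missing directions. It was 1768, 372 and 659 with the block and without the pair numbered 1, 2 or 3, and 0 to 931 without 1 culture, highest without WT culture 3 at 48 h. The averaged count of 3 became 553 with the block and 111 with block and missing directions.

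For 24 against 12 h in WT, 622 genes became 1621 with the block, 1230 with missing directions, 2527 with both and 0 to 1119 without 1 culture. In HET, 3252 became 5800 with both and 1141 to 3970 without 1 culture. For 48 against 12 h in HET, 2442 became 5301 with the block, 0 with the groups compared only, 4652 with both and 0 to 4886 without 1 culture. In WT, 8098 ran from 6038 to 8457 without 1 culture. The block pairs cultures by number; only the 48 h genotype pairs all correlated, so elsewhere the blocked counts show a shared number only.

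Of the 10 genes, at 48 h between genotypes 0 became 1 (Trak1) with the block, 1 with block and missing directions, 1 with each pair left out under the block, and 0 to 1 without 1 culture. For 24 against 12 h in WT, 0 became 1 with the minimum of 50, 1 with the block, 1 with missing directions (Mfn2 in each), 2 with both (Mfn2 and Trak1) and 0 to 2 without 1 culture. For 48 against 12 h in WT, 1 became 4 on the plain columns, 3 with missing directions, 2 with both and 1 to 2 without 1 culture. In HET, the 2 at 24 h became 1 higher and 2 lower with the block, and likewise on the plain columns. They became 5 with block and missing directions together and 0 to 3 without 1 culture. In HET at 48 h, 0 became 3 with block and missing directions together. Trak1 for 48 against 12 h in WT passed under every alternative run. Of 2370 values of single members under alternatives, 2334 kept their side of the threshold, of which 119, none past it, changed sign. Another 33 came to pass the threshold and 3, the calls of Trak1 and Mfn2 for 24 against 12 h in HET, no longer did without 1 culture. The cause of these moves was not tested. The alternatives with block or missing directions on the plain columns together, and those leaving out a pair, were chosen after seeing the data. Depth is unknown, so no limit from counting error can be given.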
